A study of Homo sapiens with 16 samples.

Results

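HL-60 is a human promyelocytic leukaemia line that can be turned into neutrophil-like cells, called dHL-60. The comparison described here is that of untreated dHL-60 after 24 h with untreated dHL-60 after 4 h, 2 libraries each, chosen by cell state, treatment and time in the sample titles. These are 4 of the 16 libraries of the series. The series asked how both cell states respond to lipoteichoic acid (LTA), a cell wall glycolipid of Staphylococcus aureus, and the untreated cells served as its controls at each time. The fit held all 12 dHL-60 libraries, in 6 groups of 2, at LTA concentrations of 0, 1 and 10 µg/ml and times of 4 and 24 h. The remaining 4 libraries, 1 each of undifferentiated HL-60 (uHL-60) with 0 or 1 µg/ml LTA at 4 and 24 h, took no part in a test. The labels call all cells the HL-60 line, with the genotype given as WT and differentiated. No source used here names the agent of differentiation, and no library of the start of the incubation was analysed here. Whether the duplicates are separate cultures is not stated. The p-values therefore cover the spread of these libraries alone, which may be technical, and the time cannot be told apart from any handling that the libraries of 1 time share.

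Neutrophils are built in steps. Promyelocytes make the primary granule proteins, such as myeloperoxidase and the serine proteases, together with the ribosomes and chaperones of a growing cell. Later stages make the secondary granule proteins, the subunits of the oxidase that produces superoxide, and the receptors for complement, formyl peptides and G-CSF, while growth stops. Mature cells also hold an alarm programme, in which NF-κB, a transcription factor held in the cytoplasm by its inhibitor NFKBIA, and the immediate early genes turn on chemokines and cytokines within hours of a stimulus and then turn on their own inhibitors.

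Library totals were 16530277 and 12072329 counts at 24 h, against 9779987 and 10627129 counts at 4 h, and ran between 9653374 and 20157081 over the series. The duplicates differed by more than sampling noise, the chi-square divided by its degrees of freedom being 15.7 at 24 h and 20 at 4 h, and were kept as separate samples. Of 11866 genes tested, 4853 (40.9%) were called at an adjusted p under 0.05 in edgeR's quasi-likelihood test, 2114 (17.8%) higher and 2739 (23.1%) lower at 24 h. Changes of over 2-fold were called for 544 genes (4.58%) higher and 1448 genes (12.2%) lower, and the libraries of the times did not overlap for 8212 genes (69.2%). The median log2 change of all genes was -0.04. Counts of list members called, given below, are to be read against the 17.8% higher and 23.1% lower of all genes. Leaving out replicate 1 of 24 h, the deepest of the 4 libraries, 1274 genes were called higher and 1864 lower. Levels are given as CPM, counts relative to the scaled library size, first in replicates 1 and 2 of 24 h and then in replicates 1 and 2 of 4 h, and changes as log2 fold change of 24 h over 4 h ± SE.

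**Figure D1:**
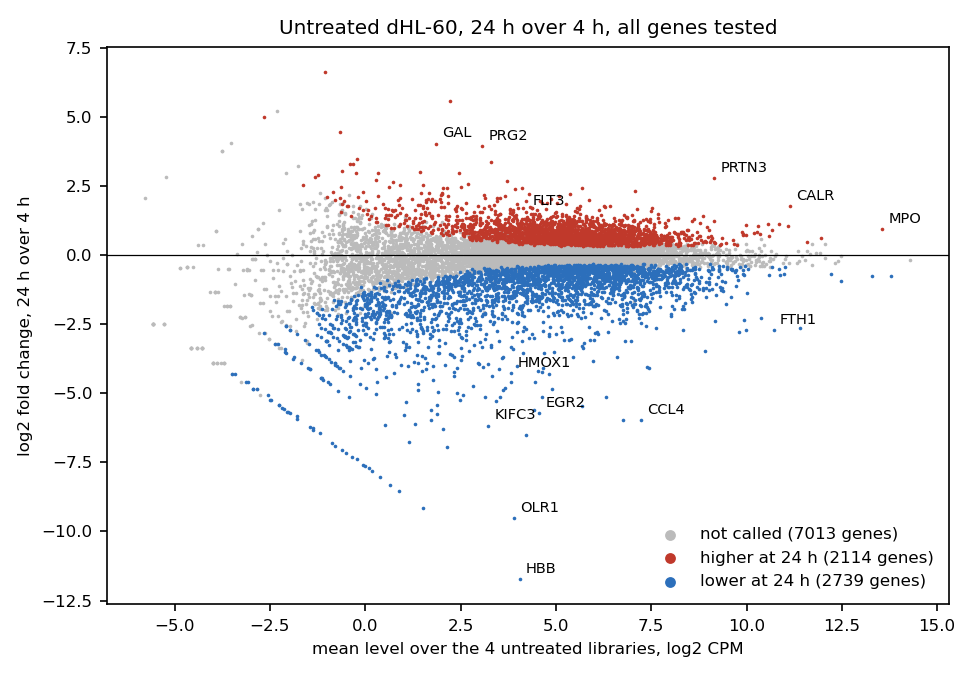
Log2 fold change of 24 h over 4 h (y axis) against the mean level of the 4 untreated libraries in log2 CPM (x axis), 1 point a gene, coloured by the call. The 1448 genes lower by over 2-fold spread further from 0 than the 544 higher ones, and MPO, with a change of 0.94, lies at the far right among the most abundant transcripts (10 genes with 0 counts in these libraries are not drawn).

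Markers of neutrophils were the most abundant marker list in every library. Summed over 20 genes they came to 17846 and 22458 CPM at 24 h, against 19392 and 14641 CPM at 4 h. MPO supplied most of the sum at 24 h (13738 and 18122 CPM) but not at 4 h (9510.1 and 7117 CPM). Of 18 tested, 12 were lower and 1, MPO, higher at 24 h. Markers of macrophages summed to 1021 and 1125 CPM at 24 h, against 1088 and 922 CPM at 4 h, with 2 of 12 tested higher (1 when any 1 of the 4 libraries was left out) and 6 lower, and CD4 supplied most of the sum. Markers of eosinophils and basophils summed to 141 and 163 CPM at 24 h, against 220.1 and 232 CPM at 4 h, with 1 of 9 higher and 2 lower (1 without replicate 1 of 24 h). Markers of lymphocytes summed to 12.1 and 10.9 CPM at 24 h, against 29.9 and 29.1 CPM at 4 h. Of 4 tested, 3 were lower (CD2, IL7R and NKG7) and 0 higher. Of the 18 genes of this list, 5 had 0 counts in all 4 libraries, among them CD3G, CD5 and CD79B of T and B cells. In bulk RNA, fewer cells of a kind and less RNA per cell cannot be told apart.

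Chemokine genes had the lowest median of the lists with at least 6 members tested. CCL4, which draws monocytes and T cells, had 6.12 and 2.94 CPM at 24 h, against 431 and 159.8 CPM at 4 h, and fell by 5.98 ± 0.49 on the log2 scale (adjusted p = 1.62e-06). Its neighbour and relative CCL3 had 4.21 and 2.5 CPM at 24 h, against 307 and 119 CPM at 4 h, and fell by 5.95 ± 0.50 (adjusted p = 1.87e-06). Both genes were low in both 24 h libraries and high in both 4 h libraries, without overlap, and replicate 1 of 4 h was the higher of its pair. CXCL2, a neutrophil attractant, had 0.586 and 0.441 CPM at 24 h, against 26.6 and 15.5 CPM at 4 h, and fell by 5.29 ± 0.39 (adjusted p = 6.14e-07). CXCL3, its close relative, fell by 5.15 ± 0.37 (adjusted p = 5.28e-07), and CCL5, a later chemokine, had 12.7 and 11.9 CPM at 24 h, against 35.1 and 34.1 CPM at 4 h, and fell by 1.49 ± 0.16 (adjusted p = 1.36e-05). Of 16 chemokine genes tested, 13 were lower and 0 higher, with a median of -3.59. CCL3 and CCL4 have near-identical copies, CCL3L3 and CCL4L2, so their reads may have been split or shared. Leaving out replicate 1 of 4 h, CCL4 stood at -5.09 (adjusted p = 5.86e-07) and CCL3 at -5.10 (adjusted p = 1.07e-06), and without replicate 1 of 24 h CCL4 stood at -6.64 (adjusted p = 7.07e-05).

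Many cytokine genes fell as well. IL1A, an interleukin-1 released by damaged cells, had 1.6 and 1.03 CPM at 24 h, against 63.7 and 32.4 CPM at 4 h, and fell by 5.14 ± 0.35 (adjusted p = 3.82e-07). IL1B, the secreted interleukin-1, had 16.5 and 11.8 CPM at 24 h, against 255 and 108 CPM at 4 h, and fell by 3.67 ± 0.34 (adjusted p = 3.68e-06). The receptor antagonist IL1RN, which blocks both, had 21.1 and 17.3 CPM at 24 h, against 445 and 207 CPM at 4 h, and fell by 4.08 ± 0.32 (adjusted p = 1.17e-06). Ligands and antagonist were low in both 24 h libraries, and replicate 1 was the higher at 4 h for each. EBI3, a subunit shared by interleukin-27 and interleukin-35, fell by 4.01 ± 0.29 (adjusted p = 5.71e-07). Of 23 cytokine genes tested, 14 were lower and 0 higher, with a median of -1.96. IL1B stood at -2.91 (adjusted p = 1.08e-06) and IL1RN at -3.42 (adjusted p = 4.33e-07) without replicate 1 of 4 h.

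The NF-κB genes themselves were among those that fell. NFKBIZ, a nuclear IκB protein made early in the response, had 1.49 and 0.588 CPM at 24 h, against 33.4 and 20.8 CPM at 4 h, and fell by 4.61 ± 0.41 (adjusted p = 3.12e-06). NFKBIA, the inhibitor that NF-κB turns on to end its own activity, had 92.6 and 78.5 CPM at 24 h, against 758 and 367 CPM at 4 h, and fell by 2.71 ± 0.28 (adjusted p = 1.09e-05). TRAF1, an adaptor of TNF receptors, had 9.37 and 9.48 CPM at 24 h, against 98 and 88.3 CPM at 4 h, and fell by 3.30 ± 0.21 (adjusted p = 2.27e-07). Each of these genes was lower in both 24 h libraries than in either 4 h library. The survival gene BCL2A1 fell by 3.09 ± 0.24 and TNFAIP2 fell by 2.77 ± 0.25 (adjusted p = 9.39e-07 and 3.3e-06). Of the 24 members of the NF-κB list, 19 were lower and 0 higher, with a median of -1.92, and the subunits RELA and REL were not called. NFKBIA stood, without replicate 1 of 4 h, at -2.09 (adjusted p = 1.01e-05), and without replicate 1 of 24 h NFKBIZ stood at -5.49 (adjusted p = 9.2e-05).

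The 250 bases before the start of 3 of these genes are printed because each holds the letters of a κB element, GGANTTTCC on either strand. Matches are in capitals. The sequences are those of the RefSeq table for GRCh38.p14 and are given 5′ to 3′ along the gene. CXCL2 is on the minus strand, chr4:74099196-74099445. NFKBIA is on the minus strand, chr14:35404750-35404999, and NFKBIZ on the plus strand, chr3:101827740-101827989.
CXCL2: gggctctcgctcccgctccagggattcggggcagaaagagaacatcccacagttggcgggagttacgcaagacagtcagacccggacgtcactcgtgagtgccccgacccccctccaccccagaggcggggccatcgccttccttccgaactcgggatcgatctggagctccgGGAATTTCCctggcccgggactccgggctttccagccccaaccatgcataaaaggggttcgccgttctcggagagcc
NFKBIA: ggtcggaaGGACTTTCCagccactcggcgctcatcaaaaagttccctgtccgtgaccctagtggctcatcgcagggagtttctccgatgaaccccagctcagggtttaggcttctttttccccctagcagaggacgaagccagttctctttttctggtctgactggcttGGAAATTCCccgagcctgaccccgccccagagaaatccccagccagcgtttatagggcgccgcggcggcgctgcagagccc
NFKBIZ: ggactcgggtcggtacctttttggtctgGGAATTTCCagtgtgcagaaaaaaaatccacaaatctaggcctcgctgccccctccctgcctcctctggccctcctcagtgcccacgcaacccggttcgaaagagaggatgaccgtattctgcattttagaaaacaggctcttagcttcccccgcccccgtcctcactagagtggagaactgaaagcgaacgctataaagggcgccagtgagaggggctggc
NFKBIA holds 2 such matches and the others 1 each. Promoters in the table run 250 bases before to 50 after the start. The letters are in 6 of the 22 promoters matched for the 24 genes of the NF-κB list (27.3%), in 1.69% of promoters of all genes tested and in 1.64% of all 27305 promoters of the table. The list was made of NF-κB genes and their early targets, and a link between the letters and the change with time was not tested. A match describes the letters only and shows no binding. Fewer than 80% of chemokine, cytokine and immediate early genes had a promoter in the table, so no share is given for those lists. The same holds for all genes called lower at 24 h, of which 78.5% had a promoter.

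Immediate early genes, which need no new protein to be switched on, were lower at 24 h in 23 of 28 members tested and higher in 0, with a median of -1.75. EGR2, a zinc finger factor of monocytic cells, had 1.01 and 0.661 CPM at 24 h, against 74.4 and 18.2 CPM at 4 h, and fell by 5.73 ± 0.65 (adjusted p = 2.03e-05). IER3, which modulates survival, had 2.61 and 2.13 CPM at 24 h, against 59.1 and 28.6 CPM at 4 h, and fell by 4.18 ± 0.34 (adjusted p = 1.6e-06). DUSP1, a phosphatase that ends MAP kinase signals, had 0.586 and 0.955 CPM at 24 h, against 19.1 and 2.18 CPM at 4 h, and was called at -3.78 ± 0.89 (adjusted p = 0.00435). For all 3, replicate 1 of 4 h was the highest library, and for DUSP1 replicate 2 of 4 h was much nearer to the 24 h libraries. At 4 h with 1 and 10 µg/ml LTA, replicate 1 was again the higher for EGR2 and DUSP1, but not for IER3. EGR3 was called at -4.89 ± 1.05 (adjusted p = 0.00243). Without replicate 1 of 4 h, EGR2 stood at -4.38 (adjusted p = 9.15e-06) and IER3 at -3.57 (adjusted p = 1.05e-06), while DUSP1 at -1.53 (adjusted p = 0.184) and EGR3 at -2.84 (adjusted p = 0.0546) lost their calls. Without replicate 2 of 4 h, EGR2 stood at -6.41 (adjusted p = 1e-07), EGR3 at -5.77 (adjusted p = 3.85e-05) and DUSP1 at -4.66 (adjusted p = 7.19e-05). Without replicate 1 of 24 h, DUSP1 stood at -3.42 (adjusted p = 0.0532) and EGR3 at -4.00 (adjusted p = 0.0388), and without replicate 2 of 24 h EGR3 stood at -6.26 (adjusted p = 0.0106).

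**Figure D2:**
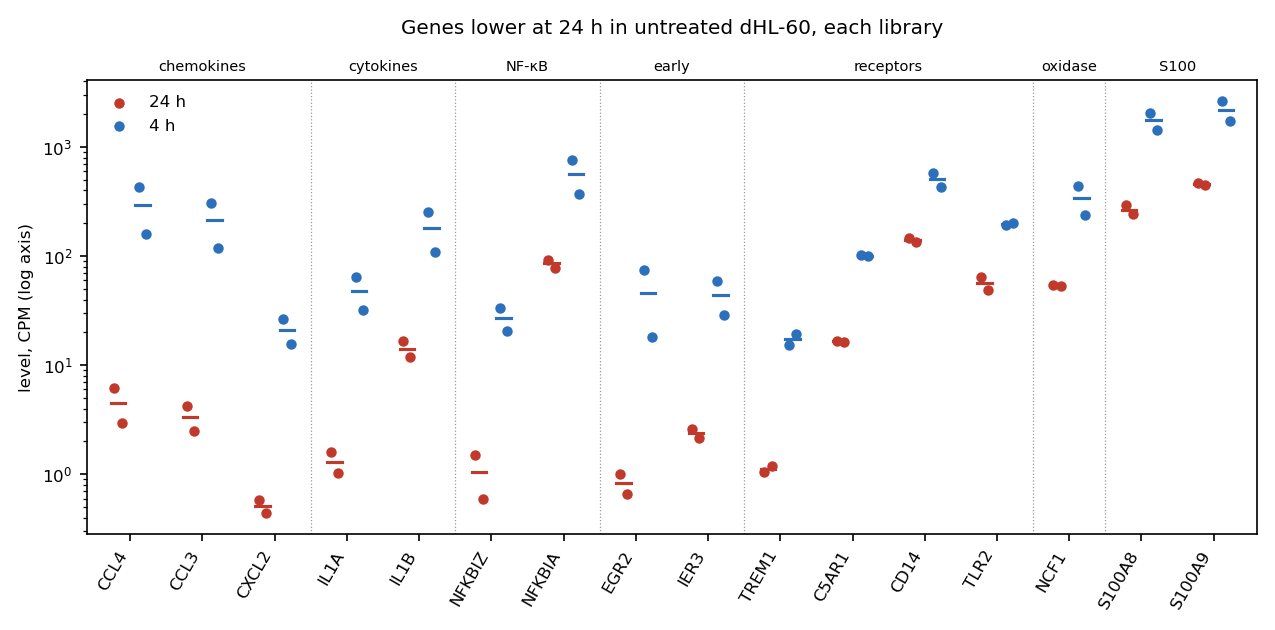
Level in CPM (log axis) of 16 genes lower at 24 h, in each of the 2 libraries at 24 h and the 2 libraries at 4 h, with a bar at the mean of each pair. No gene has overlapping pairs, and in the chemokine, cytokine, NF-κB and early groups the 4 h libraries stand further apart than in the receptor TLR2, which has 194 and 201 CPM at 4 h.

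Interferon-stimulated genes were lower in 11 of 20 members tested and higher in 0, with a median of -1.05. OAS3, which makes the messenger that activates RNase L, had 4.15 and 4.04 CPM at 24 h, against 13.2 and 16.1 CPM at 4 h, and fell by 1.84 ± 0.30 (adjusted p = 0.000318). IRF7, the main inducer of interferon genes, had 14.6 and 15.4 CPM at 24 h, against 54.3 and 37.3 CPM at 4 h, and fell by 1.61 ± 0.18 (adjusted p = 1.81e-05). The pairs of both genes lay apart. MX2, a dynamin-like antiviral protein, fell by 1.47 ± 0.27 (adjusted p = 0.000688) and DDX58, the RNA sensor also called RIG-I, fell by 1.18 ± 0.19 (adjusted p = 0.000294). The antiviral genes MX1 and ISG15 were not called.

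Surface receptors of neutrophils were lower at 24 h in 24 of 29 members tested and higher in 0, with a median of -1.17, against 23.1% of all genes lower. TREM1, which amplifies inflammatory signals, had 1.06 and 1.18 CPM at 24 h, against 15.2 and 19.5 CPM at 4 h, and fell by 3.95 ± 0.22 (adjusted p = 7.35e-08). C3AR1 and C5AR1 are the receptors for the complement fragments C3a and C5a. C3AR1 had 12.4 and 8.96 CPM at 24 h, against 105 and 87.5 CPM at 4 h, and fell by 3.17 ± 0.18 (adjusted p = 7.35e-08). C5AR1 had 16.7 and 16.2 CPM at 24 h, against 102 and 100.2 CPM at 4 h, and fell by 2.62 ± 0.18 (adjusted p = 3.85e-07). All 3 receptor genes were at the same low level in both 24 h libraries within the spread at 4 h. CSF3R, the G-CSF receptor, had 243 and 293 CPM at 24 h, against 727 and 579 CPM at 4 h, and fell by 1.28 ± 0.18 (adjusted p = 0.000102). The integrin subunit ITGAM, also called CD11b and used to follow differentiation, had 64.2 and 65.6 CPM at 24 h, against 127 and 121 CPM at 4 h, and fell by 0.93 ± 0.12 (adjusted p = 6.7e-05). CEACAM3, which takes up bacteria, fell by 2.09 ± 0.33 (adjusted p = 0.000288).

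TLR2, the receptor for LTA, and its coreceptor CD14 were both lower in the untreated cells at 24 h. In RefSeq on GRCh38, TLR2 spans 153684280 to 153710637 of chromosome 4. CD14 spans 140631732 to 140633701 of chromosome 5. The table holds 1 value per gene, with exons and untranslated regions not separated. TLR2 had 63.8 and 48.4 CPM at 24 h, against 194 and 201 CPM at 4 h, and fell by 1.81 ± 0.16 (adjusted p = 3.11e-06). CD14 had 145 and 136 CPM at 24 h, against 576 and 434 CPM at 4 h, and fell by 1.84 ± 0.16 (adjusted p = 2.11e-06). Neither gene had overlapping pairs. TLR6, which pairs with TLR2, fell by 1.5 ± 0.2 (adjusted p = 7.15e-05), and the kinase IRAK2, which acts below the receptors, fell by 3.95 ± 0.34 (adjusted p = 2.23e-06). Of 18 genes of Toll-like receptors and their signalling tested, 9 were lower and 0 higher, with a median of -0.40. IRAK2 stood at -4.63 (adjusted p = 7.07e-05) without replicate 1 of 24 h. Inflammasome genes were lower in 7 of 11 members tested and higher in 0, but in 4 without replicate 1 of 24 h and in 4 without replicate 1 of 4 h. CASP1, the protease that matures interleukin-1, fell by 1.32 ± 0.15 (adjusted p = 1.91e-05) and the sensor NLRC4 fell by 1.03 ± 0.17 (adjusted p = 0.000288). The sensor NLRP3 was called at -0.72 ± 0.23 (adjusted p = 0.0215) and lost its call without replicate 1 of 4 h (-0.25, adjusted p = 0.384), without replicate 1 of 24 h (-0.67, adjusted p = 0.117) and without replicate 2 of 24 h (-0.75, adjusted p = 0.0617).

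All 8 genes of the NADPH oxidase, the superoxide-producing complex, were called lower at 24 h, with a median of -0.99, and 5 of them without replicate 1 of 24 h. CYBB, the membrane subunit that carries electrons, had 411 and 361 CPM at 24 h, against 981 and 925 CPM at 4 h, and fell by 1.30 ± 0.16 (adjusted p = 3.35e-05). Its pairs were tight and far apart. NCF1 had 54.9 and 52.8 CPM at 24 h, against 438 and 239.9 CPM at 4 h, and fell by 2.65 ± 0.32 (adjusted p = 3.02e-05), with a count that is uncertain because of near-identical pseudogenes. RAC2, the small GTPase of the complex, fell by 1.19 ± 0.19 (adjusted p = 0.000242).

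Secondary and gelatinase granules form after the primary ones. Of 13 of their genes tested, 7 were lower and 0 higher, with a median of -1.04, and 6 were not called. CHI3L1, a chitinase-like protein, had 312 and 338 CPM at 24 h, against 1675 and 1619 CPM at 4 h, and fell by 2.34 ± 0.26 (adjusted p = 1.76e-05). HP, haptoglobin, had 23.8 and 17.8 CPM at 24 h, against 147 and 139 CPM at 4 h, and fell by 2.77 ± 0.23 (adjusted p = 1.73e-06). Pairs of both genes lay close together and wide apart between times. The calcium-binding proteins S100A8 and S100A9 form calprotectin, the main cytosolic protein of neutrophils. S100A8 had 292 and 241 CPM at 24 h, against 2063 and 1439.9 CPM at 4 h, and fell by 2.72 ± 0.19 (adjusted p = 5.11e-07). S100A9 had 468 and 446 CPM at 24 h, against 2642 and 1730.1 CPM at 4 h, and fell by 2.26 ± 0.19 (adjusted p = 1.93e-06).

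Of 17 primary granule genes tested, 5 were higher, against 17.8% of all genes, 2 were lower and 10 were not called, with a median of 0.40. PRTN3, proteinase 3, had 854 and 1123 CPM at 24 h, against 148 and 139 CPM at 4 h, and rose by 2.78 ± 0.38 (adjusted p = 9.01e-05). CTSG, cathepsin G, had 234 and 288 CPM at 24 h, against 132 and 108 CPM at 4 h, and rose by 1.12 ± 0.17 (adjusted p = 0.000167). MPO, myeloperoxidase, had 13738 and 18122 CPM at 24 h, against 9510.1 and 7117 CPM at 4 h, and rose by 0.94 ± 0.22 (adjusted p = 0.00398). All 3 were higher in both 24 h libraries than in either at 4 h. SRGN, the proteoglycan that packs granule proteases, rose by 1.04 ± 0.23 (adjusted p = 0.00288). Neutrophil elastase (ELANE) at 0.59 ± 0.28 and azurocidin (AZU1) at -0.02 ± 0.24, which lie beside PRTN3 on chromosome 19, were not called (adjusted p = 0.11 and 0.958). The granule membrane protein CD63 fell by 1.10 ± 0.16 (adjusted p = 0.000132). The ribonuclease RNASE2 was called at -0.72 ± 0.18 (adjusted p = 0.0058), but not without replicate 1 of 24 h (-0.57, adjusted p = 0.0745). The count of members lower was 4 without replicate 2 of 4 h and 1 without replicate 1 of 24 h.

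Transcription factors of myeloid lineages were lower in 10 of 20 members tested and higher in 0, with a median of -0.75. CEBPB, induced in emergency granulopoiesis, had 59.8 and 72.7 CPM at 24 h, against 266 and 192 CPM at 4 h, and fell by 1.79 ± 0.23 (adjusted p = 4.53e-05). Its pairs did not overlap. PPARG, a nuclear receptor of lipids, fell by 2.20 ± 0.21 (adjusted p = 4.98e-06) and KLF4 fell by 1.80 ± 0.30 (adjusted p = 0.000345). CEBPE, the factor of secondary granule genes, had 109 and 129.5 CPM at 24 h, against 182 and 142 CPM at 4 h, and was not called (-0.44 ± 0.20, adjusted p = 0.0875). It was called without replicate 2 of 4 h (-0.61, adjusted p = 0.0496) and when no filter on low counts was used. Retinoic acid and vitamin D target genes were lower in 6 of 9 members tested, and in 3 without replicate 1 of 24 h, among them the receptor VDR (-0.73 ± 0.13, adjusted p = 0.000588).

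Progenitor and growth genes were higher in 5 of 11 members tested and lower in 1, with a median of 0.52, and the lower call (CD38) was not made without replicate 2 of 4 h or replicate 1 of 24 h. FLT3, a receptor kinase of progenitors, had 26.9 and 28.9 CPM at 24 h, against 9.09 and 9.66 CPM at 4 h, and rose by 1.57 ± 0.26 (adjusted p = 0.00036). MYC, which is amplified in HL-60 cells and drives growth, had 1862 and 2372 CPM at 24 h, against 1183 and 1075 CPM at 4 h, and rose by 0.91 ± 0.17 (adjusted p = 0.000869). TFRC, the transferrin receptor, had 735 and 606 CPM at 24 h, against 342 and 320.2 CPM at 4 h, and rose by 1.02 ± 0.16 (adjusted p = 0.000267). All 3 pairs lay apart. KIT, the stem cell factor receptor, had 71.8 and 71.9 CPM at 24 h, against 85.8 and 84.9 CPM at 4 h, and was not called (-0.25 ± 0.18, adjusted p = 0.28), although its pairs did not overlap.

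Most ribosome biogenesis factors rose. Of 28 tested, 24 were higher and 0 lower, with a median of 0.75, and their sum was 6787 and 6669 CPM at 24 h, against 3723 and 3541 CPM at 4 h. DDX21, an RNA helicase of the nucleolus, had 287 and 302 CPM at 24 h, against 114 and 118 CPM at 4 h, and rose by 1.35 ± 0.15 (adjusted p = 1.81e-05). BOP1 and WDR12 are partners in a complex that processes the RNA of the large subunit. BOP1 had 125 and 136 CPM at 24 h, against 55 and 48.9 CPM at 4 h, and rose by 1.33 ± 0.15 (adjusted p = 1.93e-05). WDR12 had 85.3 and 72.3 CPM at 24 h, against 29.4 and 35.4 CPM at 4 h, and rose by 1.28 ± 0.15 (adjusted p = 2.25e-05). Every one of these was more than doubled in mean level. LYAR, another nucleolar protein, rose by 1.24 ± 0.14 (adjusted p = 2.01e-05). Among the cytosolic ribosomal proteins 0 of 30 were higher, 1 was lower and the median was -0.07. The one called, RPL27 (-0.75 ± 0.27, adjusted p = 0.0418), lost its call without replicate 1 of 4 h (-0.31, adjusted p = 0.422), replicate 1 of 24 h (-0.75, adjusted p = 0.147) or replicate 2 of 24 h (-0.74, adjusted p = 0.134). Leaving out replicate 2 of 4 h gave 7 ribosomal protein genes lower, and leaving out replicate 1 of 4 h gave 1 higher.

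The bases before the start of UTP20, a factor of the small subunit, are printed because they hold the E-box CACGTG, the letters to which MYC and its relatives bind, and the gene was chosen for this match after its values were seen. UTP20 had 41.2 and 46 CPM at 24 h, against 18.1 and 19.7 CPM at 4 h, and rose by 1.2 ± 0.15 (adjusted p = 3.96e-05). It lies on the plus strand, and the bases shown are chr12:101279855-101280104.
UTP20: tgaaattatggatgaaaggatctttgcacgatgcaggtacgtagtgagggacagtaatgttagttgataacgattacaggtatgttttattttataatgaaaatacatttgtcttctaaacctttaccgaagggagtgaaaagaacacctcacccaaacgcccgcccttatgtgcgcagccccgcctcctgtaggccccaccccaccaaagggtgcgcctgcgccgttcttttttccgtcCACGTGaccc
The match, in capitals, reads the same on both strands. It is in 8 of the 23 promoters matched for the 28 genes of the list (34.8%), in 15.3% of those of all genes called higher, in 10.4% of promoters of all genes tested and in 7.43% of all promoters of the table.

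Heat shock proteins and chaperonins, which fold newly made proteins, were higher in 17 of 25 members tested and lower in 1, with a median of 0.72. FKBP4, a partner of HSP90, had 216 and 209 CPM at 24 h, against 68.5 and 66.8 CPM at 4 h, and rose by 1.65 ± 0.14 (adjusted p = 2.1e-06). HSPD1 and HSPE1 form the mitochondrial chaperonin and are transcribed from a shared start region. HSPD1 had 737 and 607 CPM at 24 h, against 243 and 264 CPM at 4 h, and rose by 1.41 ± 0.16 (adjusted p = 1.83e-05). HSPE1 had 67.7 and 60.5 CPM at 24 h, against 28.4 and 19.8 CPM at 4 h, and rose by 1.42 ± 0.19 (adjusted p = 7.57e-05). The stress-inducible HSPA1A and HSPA1B, near-identical copies whose counts are uncertain, were not called, nor was DNAJB1, and the inducible cochaperone BAG3 fell by 2.04 ± 0.40 (adjusted p = 0.00131). Without replicate 2 of 4 h, 3 members were called lower.

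CHORDC1, another HSP90 partner, had 48.2 and 34.6 CPM at 24 h, against 14.7 and 21.3 CPM at 4 h, and rose by 1.2 ± 0.21 (adjusted p = 0.000573). Its upstream bases are printed because they hold overlapping matches, in capitals, to a heat shock element, read on both strands as GAA, TTC and GAA blocks with NN between each. They lie on the minus strand at chr11:90223050-90223299.
CHORDC1: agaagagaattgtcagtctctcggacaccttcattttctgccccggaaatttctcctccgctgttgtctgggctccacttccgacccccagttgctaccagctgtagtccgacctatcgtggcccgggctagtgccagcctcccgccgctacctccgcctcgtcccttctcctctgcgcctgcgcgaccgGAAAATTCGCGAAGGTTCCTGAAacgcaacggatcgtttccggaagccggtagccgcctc
The run in capitals holds 3 overlapping matches. The element is in 3 of the 22 promoters matched for the 25 genes of the list (13.6%), in 0.293% of promoters of all genes tested and in 0.487% of all promoters of the table. Among the 3 matched genes CHORDC1 is shown because its matches overlap.

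Chaperones of the endoplasmic reticulum and other genes of the unfolded protein response were higher in 9 of 22 members tested and lower in 1, with a median of 0.34. CALR, calreticulin, had 3079.8 and 3880.3 CPM at 24 h, against 1054 and 966 CPM at 4 h, and rose by 1.78 ± 0.18 (adjusted p = 7.54e-06). PDIA6, a disulfide isomerase, rose by 1.01 ± 0.16 (adjusted p = 0.000323), and CANX, calnexin, by 0.83 ± 0.19 (adjusted p = 0.00326). The pairs of CALR lay far apart. The number called lower was 2 without replicate 1 of 4 h and 0 without any other single untreated library. Of 24 amino acid response genes, 3 were higher, 11 lower and 10 not called, with a median of -0.32. PHGDH, the first enzyme of serine synthesis, fell by 1.47 ± 0.24 (adjusted p = 0.000295), and the stress factor DDIT3 fell by 1.06 ± 0.16 (adjusted p = 0.000184). Without replicate 1 of 24 h the list had 5 lower, and without replicate 2 of 4 h it had 5 higher.

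**Figure D3:**
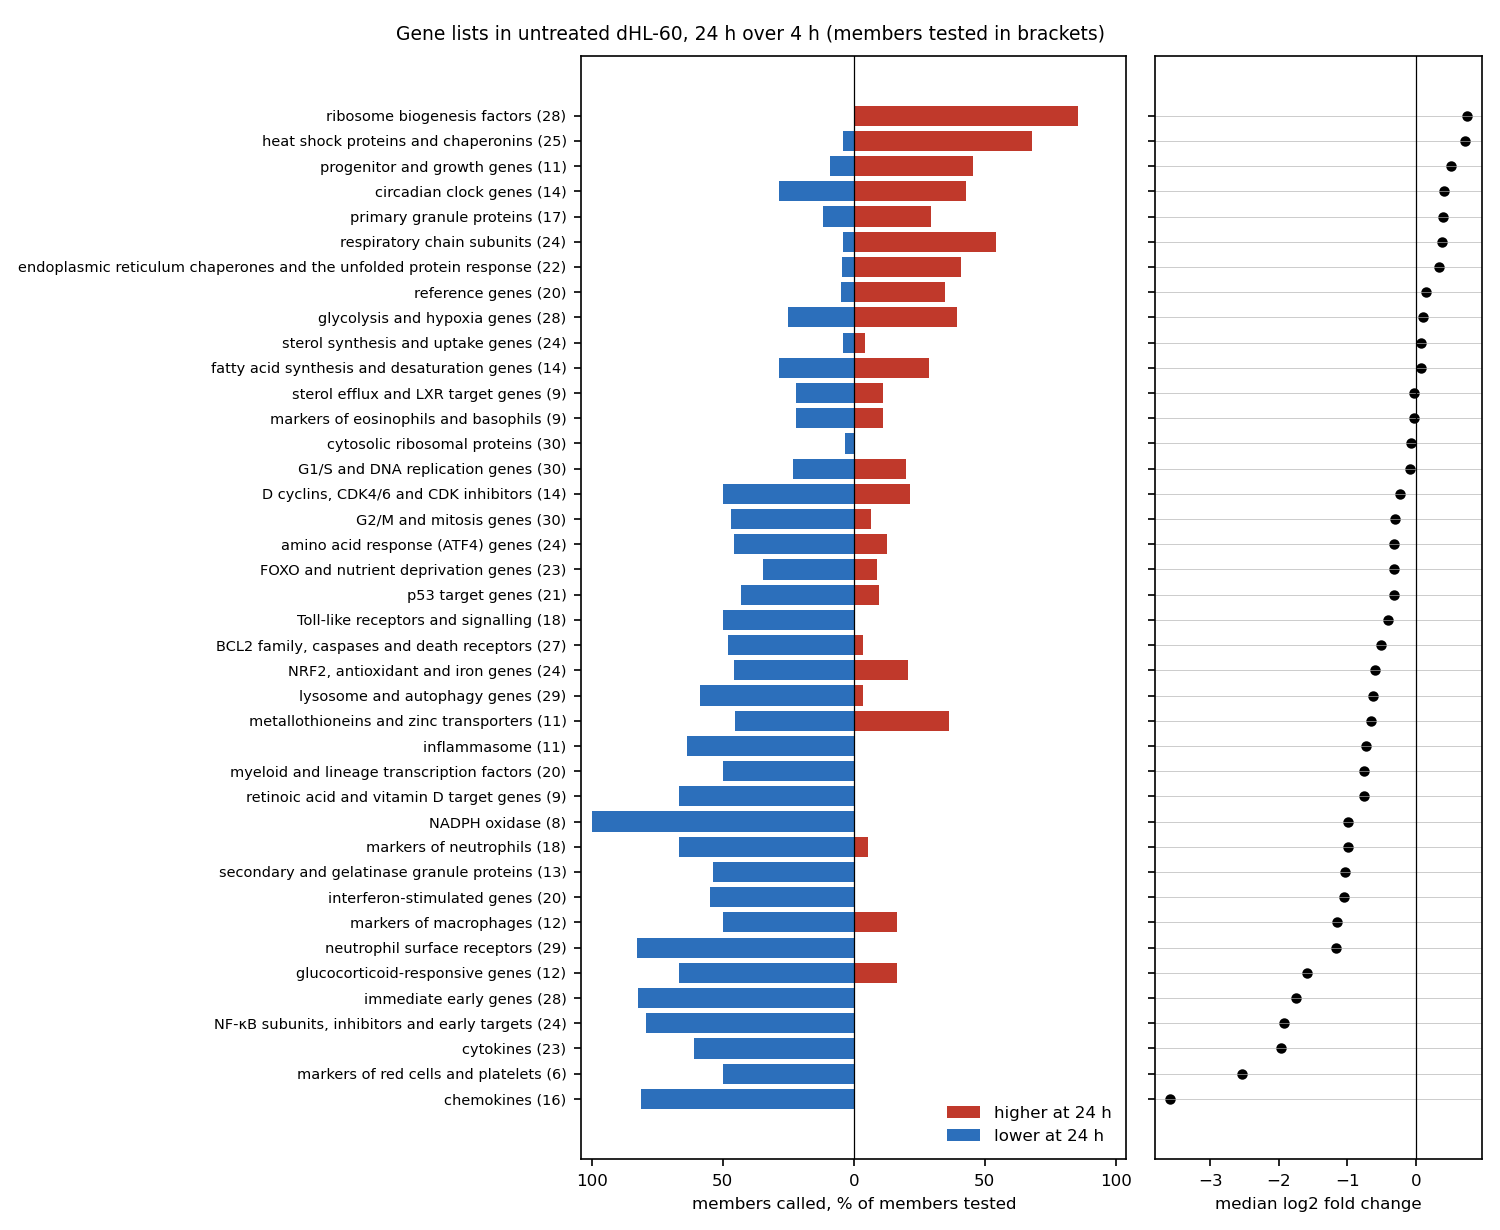
Left, members called higher (right of 0) or lower (left of 0) at 24 h as a percentage of members tested, for the 40 lists with at least 6 members tested. Right, the median log2 fold change of the members tested, with chemokines lowest at -3.59 and ribosome biogenesis factors highest at 0.75, against -0.04 over all genes.

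Respiratory chain subunits were higher in 13 of 24 members tested and lower in 1, with a median of 0.39. CYC1, cytochrome c1, had 138 and 159.9 CPM at 24 h, against 95.9 and 84.2 CPM at 4 h, and rose by 0.73 ± 0.14 (adjusted p = 0.000916). The changes were small, and SDHD, a subunit of complex II, had the largest rise at 0.78 ± 0.16 (adjusted p = 0.00208). Leaving out replicate 1 of 24 h, 5 members were called higher, and without replicate 2 of 4 h 6. The 1 lower call was not made without replicate 1 of 4 h or without either 24 h library. Glycolysis and hypoxia genes were divided, with 11 of 28 higher, 7 lower and a median of 0.10, and 7 higher without replicate 1 of 24 h. LDHA, which makes lactate, had 873 and 705 CPM at 24 h, against 369 and 305 CPM at 4 h, and rose by 1.23 ± 0.16 (adjusted p = 5.89e-05). BNIP3, a mitophagy receptor induced by hypoxia, rose by 1.87 ± 0.22 (adjusted p = 2.73e-05). The lactate exporter SLC16A3 fell by 1.22 ± 0.13 (adjusted p = 1.22e-05) and the hexokinase HK1 fell by 1.13 ± 0.18 (adjusted p = 0.000286), so the enzymes did not move as 1 group.

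**Figure D4:**
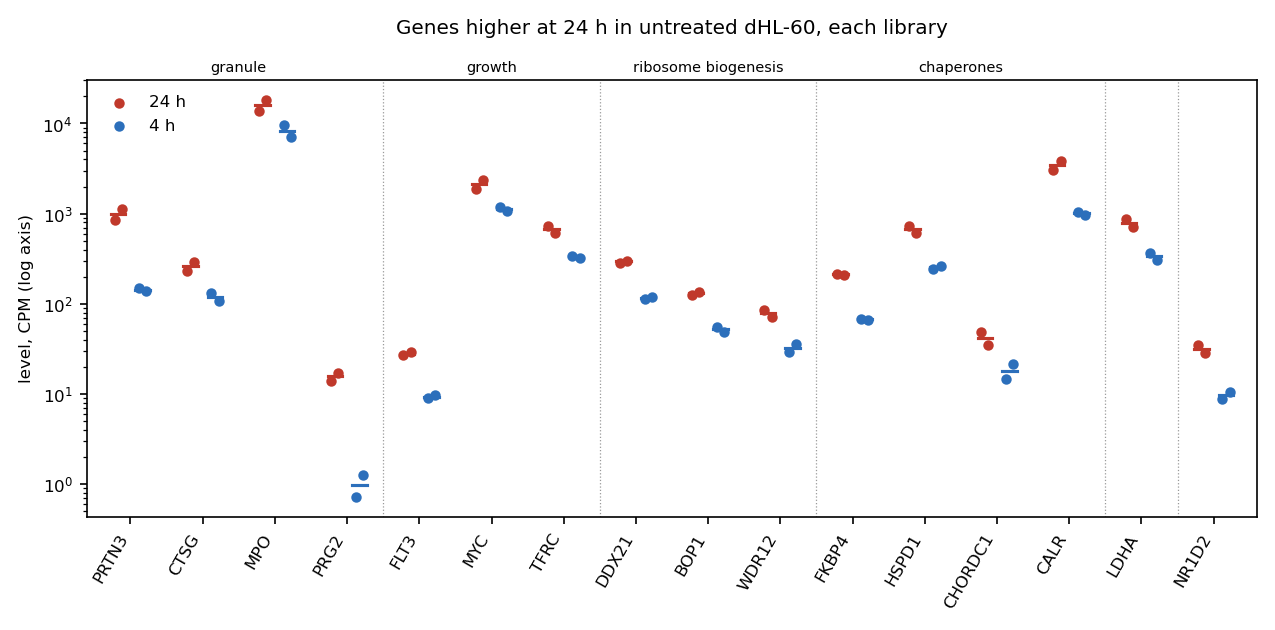
Level in CPM (log axis) of 16 genes higher at 24 h, in each of the 2 libraries at 24 h and the 2 libraries at 4 h, with a bar at the mean of each pair. No gene has overlapping pairs, and the largest difference drawn is that of PRG2, with 14 and 17.3 CPM at 24 h against 0.715 and 1.26 CPM at 4 h.

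Cell cycle genes had more lower than higher calls. Of 30 G2/M and mitosis genes, 14 were lower and 2 higher, with a median of -0.31. MKI67, the proliferation antigen Ki-67, had 84.3 and 109.8 CPM at 24 h, against 179 and 218 CPM at 4 h, and fell by 1.03 ± 0.19 (adjusted p = 0.000752). AURKB, a kinase of chromosome alignment, fell by 1.22 ± 0.18 (adjusted p = 0.000147) and the mitotic factor FOXM1 fell by 0.86 ± 0.13 (adjusted p = 0.000142). The count of 14 was 9 without replicate 1 of 4 h, 8 without replicate 1 of 24 h and 9 without replicate 2 of 24 h, and that of 2 was 1 without replicate 1 of either time. Of 30 G1/S and DNA replication genes, 6 were higher and 7 lower, near the shares of all genes, and without replicate 1 of 24 h or replicate 2 of 4 h 4 were lower. RRM2, a subunit of ribonucleotide reductase, fell by 1.21 ± 0.18 (adjusted p = 0.00013), while POLA1, the catalytic subunit of DNA polymerase α, rose by 0.97 ± 0.16 (adjusted p = 0.000298).

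Several inhibitors of the cell cycle were lower as well. CDKN1A, the inhibitor p21, had 2.71 and 2.72 CPM at 24 h, against 36.5 and 28.1 CPM at 4 h, and fell by 3.56 ± 0.20 (adjusted p = 7.35e-08). CDKN1C, p57, fell by 2.39 ± 0.26 (adjusted p = 1.28e-05) and CDKN2D, p19, fell by 2.22 ± 0.23 (adjusted p = 1.01e-05). The inhibitor CDKN1B, p27, was not called (adjusted p = 0.841), nor were RB1 and RBL2. CCND3, the D cyclin of myeloid cells, had 50.4 and 61.5 CPM at 24 h, against 214 and 197 CPM at 4 h, and fell by 1.88 ± 0.14 (adjusted p = 9.13e-07). The other D cyclin called, CCND1, had 28.8 and 32.5 CPM at 24 h, against 17.3 and 17 CPM at 4 h, and rose by 0.84 ± 0.15 (adjusted p = 0.000678). Of 14 D cyclins, kinases and inhibitors, 3 were higher and 7 lower, with a median of -0.23. Of 21 p53 target genes 2 were higher and 9 lower, with a median of -0.32, and without replicate 1 of either time 1 was higher. BTG2, which restrains growth, fell by 2.55 ± 0.29 (adjusted p = 2.04e-05), and stood at -1.88 (adjusted p = 2.36e-05) without replicate 1 of 4 h. Among 27 genes of the BCL2 family, caspases and death receptors 13 were lower and 1 higher, or 2 higher without replicate 2 of 4 h, with a median of -0.50. BMF, a BH3-only killer, fell by 2.28 ± 0.13 (adjusted p = 7.92e-08).

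Lysosome and autophagy genes were lower in 17 of 29 members tested and higher in 1, with a median of -0.63. SQSTM1, the autophagy receptor p62, had 313 and 323 CPM at 24 h, against 1145 and 1015 CPM at 4 h, and fell by 1.76 ± 0.16 (adjusted p = 2.84e-06). GABARAPL1, an ATG8 protein, fell by 2.61 ± 0.20 (adjusted p = 9.23e-07) and ULK1, the kinase that starts autophagy, fell by 1.74 ± 0.17 (adjusted p = 4.72e-06). The 1 higher call was not made without replicate 1 of 4 h. Of 24 NRF2, antioxidant and iron genes, 5 were higher and 11 lower, with a median of -0.59, and without replicate 1 of 24 h 3 were higher. HMOX1, which breaks down haem, had 1.22 and 1.62 CPM at 24 h, against 20.4 and 33.4 CPM at 4 h, and fell by 4.26 ± 0.38 (adjusted p = 3.2e-06). FTH1, the ferritin heavy chain, had 479.6 and 412 CPM at 24 h, against 3304 and 2517 CPM at 4 h, and fell by 2.71 ± 0.24 (adjusted p = 2.65e-06), a count that its many pseudogenes make uncertain. Ferritin and the transferrin receptor thus moved in opposite directions. Of 11 metallothioneins and zinc transporters, 4 were higher and 5 lower, with a median of -0.66. MT2A, which binds zinc, had 12.3 and 13.1 CPM at 24 h, against 46.5 and 166 CPM at 4 h, and fell by 3.07 ± 0.65 (adjusted p = 0.00209). As with both LTA concentrations, replicate 2 of 4 h was here the higher. Without it MT2A stood at -1.87 (adjusted p = 0.0292), and without replicate 1 of 4 h at -3.70 (adjusted p = 0.000449). The zinc importer SLC39A14 rose by 1.97 ± 0.31 (adjusted p = 0.000243). The 5 lower were 3 without replicate 2 of 4 h and 3 without replicate 1 of 24 h.

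Of 24 sterol synthesis and uptake genes 1 was called higher and 1 lower, with a median of 0.08, although without replicate 2 of 4 h 5 were higher. The 1 higher call was not made without replicate 2 of 24 h, and without replicate 1 of 24 h the count lower was 0 and without replicate 1 of 4 h it was 2. Fatty acid genes had 4 of 14 higher and 4 lower. For each list in this paragraph, the shares over all genes tested were 17.8% higher and 23.1% lower. FASN, fatty acid synthase, rose by 1.24 ± 0.20 (adjusted p = 0.000246), and ACSL1, which activates fatty acids, fell by 1.85 ± 0.18 (adjusted p = 5.52e-06). Of 9 sterol efflux genes 1 was higher and 2 lower, with 2 higher without replicate 2 of 4 h or replicate 1 of 24 h and 0 or 1 lower when any 1 library was left out. The FOXO and nutrient deprivation list had 2 of 23 higher and 8 lower, between 4 and 5 lower when any 1 untreated library was left out and 1 higher without replicate 1 of either time. Its member DEPTOR, an inhibitor of mTOR, rose by 2.19 ± 0.30 (adjusted p = 9.29e-05).

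Glucocorticoid-responsive genes were lower in 8 of 12 members tested and higher in 2, with a median of -1.59, and 1 higher without replicate 2 of 4 h or replicate 1 of 24 h. ANXA1, which restrains neutrophil migration, had 44.5 and 32.7 CPM at 24 h, against 154 and 230.4 CPM at 4 h, and fell by 2.31 ± 0.25 (adjusted p = 1.31e-05). DUSP1 and NFKBIA, given above, are also members. Circadian clock genes moved in both directions, with 6 of 14 higher and 4 lower, and a median of 0.41. NR1D2, a repressor of the clock loop also called REV-ERBβ, had 34.6 and 28.5 CPM at 24 h, against 8.88 and 10.4 CPM at 4 h, and rose by 1.71 ± 0.19 (adjusted p = 1.83e-05). ARNTL, the clock activator BMAL1 that NR1D2 represses, had 9.16 and 9.7 CPM at 24 h, against 16.3 and 18.7 CPM at 4 h, and fell by 0.90 ± 0.15 (adjusted p = 0.000465). It was named after its values were seen. BHLHE40, which represses the same loop, fell by 1.01 ± 0.16 (adjusted p = 0.000213). PER3 was called at 1.13 ± 0.30 (adjusted p = 0.00841) and lost its call without replicate 1 of 4 h (0.76, adjusted p = 0.0745) or replicate 1 of 24 h (1.06, adjusted p = 0.0556), where 3 clock genes were called higher. With 2 times the data hold no cycle.

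Of 20 reference genes, often used to scale other assays, 7 were higher and 1 lower, and 4 higher without replicate 1 of 24 h. HPRT1, a purine salvage enzyme, had 70.2 and 44.7 CPM at 24 h, against 24.9 and 27.7 CPM at 4 h, and rose by 1.13 ± 0.22 (adjusted p = 0.0011). ACTB, cytoplasmic actin, had 10419.6 and 10559 CPM at 24 h, against 19457 and 15846 CPM at 4 h, and fell by 0.75 ± 0.16 (adjusted p = 0.0021).

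The genes with the largest rises under the rule for named genes, which leaves out microRNA hosts and other noncoding symbols, were of several functions. GAL, the neuropeptide galanin, had 7.13 and 6.61 CPM at 24 h, against 0.204 and 0.588 CPM at 4 h, and rose by 4.03 ± 0.42 (adjusted p = 1.1e-05). PRG2, the major basic protein of eosinophil granules, had 14 and 17.3 CPM at 24 h, against 0.715 and 1.26 CPM at 4 h, and rose by 3.94 ± 0.44 (adjusted p = 1.83e-05). IGLL1, part of the surrogate light chain of early B cells, had 16.9 and 19.1 CPM at 24 h, against 1.43 and 2.02 CPM at 4 h, and rose by 3.36 ± 0.38 (adjusted p = 1.97e-05). The glutamine transporter SLC38A5 had 81.6 and 90.7 CPM at 24 h, against 17.4 and 14.9 CPM at 4 h, and rose by 2.42 ± 0.17 (adjusted p = 4.32e-07). None of these pairs overlapped, which the rule required of the largest rises. The rest of the 12 named by that rule were PRTN3, IMMP2L, CA8, PARM1, FBXL17, CGREF1, S1PR3 and NMNAT3, at 2.42 to 2.95 on the log2 scale. Of the 9 eosinophil and basophil markers tested, PRG2 was the 1 called higher and 6 were not called, and CCR3, the eotaxin receptor, fell by 1.74 ± 0.23 (adjusted p = 6.88e-05). Without replicate 2 of 4 h GAL stood at 5.01 (adjusted p = 4.97e-05).

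The genes of the largest rises were set beside the uHL-60 libraries without LTA, 1 at 24 h and 1 at 4 h. GAL, PRG2, IGLL1, IMMP2L, PRTN3 and SLC38A5 stood above untreated dHL-60 at both times. CA8, FBXL17, CGREF1, S1PR3 and NMNAT3 stood above both dHL-60 libraries at 4 h only. PARM1 stood below dHL-60 at both times. PRG2 had 4485 CPM at 24 h and 4588 CPM at 4 h, IGLL1 had 258 and 206 CPM, and PRTN3 had 2209.6 and 2198 CPM. By contrast PARM1 had 0.318 and 0.255 CPM. CGREF1 had 8.16 CPM at 24 h, below the 26.8 and 31.3 CPM of dHL-60. At 4 h it had 9.82 CPM, above the 5.11 and 5.54 CPM of dHL-60. Each of the 12 genes with the largest falls had at most 0.611 CPM in either uHL-60 library. Other genes that fell in dHL-60 lay on both sides of their dHL-60 levels. CD14 had 0.424 CPM at 24 h and 0.662 CPM at 4 h, S100A8 had 9.33 and 9.88 CPM, and C5AR1 had 0.159 and 0.102 CPM, while MKI67 had 669 and 612 CPM, RRM2 had 199 and 209 CPM, and PHGDH had 126 and 128 CPM. The genes whose values are printed in this paragraph were chosen after those values were seen. With 1 library at each time these values have no test. Their CPM rest on a separate TMM scaling over all libraries of the series, not on that of the dHL-60 fit.

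The largest falls included genes with 0 or few counts at 24 h. The receptor OLR1, which binds oxidised lipoprotein, had 1 count in the 24 h pair and 640 in the 4 h pair, 0.0532 and 0 CPM against 30.9 and 28.3 CPM, a ratio of 956 in favour of 4 h with a 95% exact binomial interval of 171 to 37807. The repressor MSC had 3 counts at 24 h and 172 at 4 h, a ratio of 85.6 in favour of 4 h (28.8 to 419), and the incretin receptor GIPR had 3 and 139, a ratio of 69.2 (23.2 to 339.6). KIFC3, a kinesin, had 0.319 and 0.147 CPM at 24 h, against 19.4 and 17.4 CPM at 4 h, and fell by 6.17 ± 0.48 (adjusted p = 1.05e-06). TNFRSF18, also called GITR, had 1.12 and 0.514 CPM at 24 h, against 54.9 and 29.9 CPM at 4 h, and fell by 5.61 ± 0.44 (adjusted p = 1.02e-06). The pairs of these 5 genes did not overlap, which the rule required of the largest falls. G0S2, an inhibitor of lipid breakdown, fell by 5.74 ± 0.60 (adjusted p = 1e-05) and the potassium channel KCNH3 was called at -5.61 ± 1.02 (adjusted p = 0.000932). Leaving out a 24 h library moved these low counts, G0S2 to -4.95 without replicate 1 (adjusted p = 0.000557) and -6.81 without replicate 2 (adjusted p = 0.000179), and KCNH3 to -4.82 (adjusted p = 0.0202) and -6.69 (adjusted p = 0.00711). KCNH3 stood at -4.65 (adjusted p = 0.00804) without replicate 2 of 4 h. KIFC3 stood at -6.86 (adjusted p = 8.29e-05) and TNFRSF18 at -6.33 (adjusted p = 6.72e-05) without replicate 1 of 24 h.

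HBB, the β-globin of red cells, had 0 counts in both 24 h libraries, against 32 and 34.4 CPM at 4 h, at least 359-fold lower against a floor of 3 counts over the 24 h pair. KRT13, a keratin of squamous epithelium, also had 0 counts at 24 h, against 8.27 and 3.11 CPM at 4 h, at least 58.7-fold lower. KRT13 lost its call without replicate 1 of 4 h (adjusted p = 0.0682) and without replicate 1 or 2 of 24 h (adjusted p = 0.0927 and 0.0573). Both genes are known from other tissues. Adult globin genes (3, summed) had 0 and 0 CPM at 24 h, against 33.3 and 36.3 CPM at 4 h. Markers of red cells and platelets (21 genes) summed to 3.73 and 3.31 CPM at 24 h, against 38.8 and 42.2 CPM at 4 h, with 3 of 6 tested lower, and GYPB, HBD and ITGB3 had 0 counts in all 4 libraries. A list of 8 liver-secreted proteins, chosen after the data were seen, had 0.0532 and 0.22 CPM at 24 h, against 10.3 and 10.6 CPM at 4 h. A list of 5 squamous epithelial genes, chosen likewise, had 0 and 3.82 CPM at 24 h, against 18.4 and 9.58 CPM at 4 h. These sums were higher in the untreated 4 h pair. With 1 µg/ml LTA the liver sum was 0.0734 and 0.131 CPM at 24 h, against 7.11 and 0.232 CPM at 4 h. With 10 µg/ml it was 5.17 and 0.139 CPM, against 0 and 0.0934 CPM. The squamous sum was 2.57 and 8.39 CPM at 24 h, against 10.1 and 30.1 CPM at 4 h, with 1 µg/ml. With 10 µg/ml it was 6.44 and 0.697 CPM, against 16.9 and 7.57 CPM. The part of these genes in the results on HBB and KRT13 was not tested.

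The genes called differed in length. The RefSeq span of the gene had a median of 35.9 kb for genes called higher at 24 h and of 22.2 kb for genes called lower, against 28.2 kb over all genes tested. Among genes changed by over 2-fold the medians were 43.6 kb for those higher and 19.4 kb for those lower. Among the 2963 shortest genes, up to 11.4 kb, 11.8% were higher and 28.5% lower. Among the 2963 longest, from 66.3 kb, 20.6% were higher and 19.7% lower. Chemokine genes had a median span of 2.27 kb and immediate early genes 5.09 kb. Other lists did not go with this order. Cytosolic ribosomal proteins, of which 1 of 30 was called lower and 0 higher, had a median span of 4.49 kb. Ribosome biogenesis factors had 18.6 kb and heat shock proteins and chaperonins 16.1 kb, although most members of both lists were higher.

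The same step in time was measured in cells given LTA. The log2 changes of untreated cells rest on the untreated libraries, while the LTA libraries entered the same fit and share in the filter and the spread behind each SE and adjusted p. With 1 µg/ml LTA 48.7% of genes were called, 3021 (25.5%) higher and 2761 (23.3%) lower at 24 h than at 4 h. With 10 µg/ml 46.8% were called, 2853 (24%) higher and 2695 (22.7%) lower. Of the 2114 genes higher in untreated cells, 1324 were also higher with 1 µg/ml (62.6% of the untreated list, 43.8% of the other), and 888 with 10 µg/ml (42% and 31.1%). Of the 2739 lower in untreated cells, 1468 were also lower with 1 µg/ml (53.6% and 53.2%) and 1112 with 10 µg/ml (40.6% and 41.3%). Opposite calls were made for 57 and 297 of them with 1 µg/ml, and for 163 and 481 with 10 µg/ml. The overlap was smaller at the higher concentration in both directions. Without replicate 1 of the 4 h cells with 10 µg/ml, 1853 genes were higher there.

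The difference in time change between LTA-treated and untreated cells was tested as an interaction. Relative to untreated cells, the change with 1 µg/ml was more positive for 1582 genes (13.3%) and more negative for 879 (7.41%), 20.7% in all. With 10 µg/ml it was more positive for 2339 (19.7%) and more negative for 1662 (14%), 33.7% in all. More negative changes with 1 µg/ml numbered 550 without untreated replicate 1 of 24 h and 547 without replicate 2 of the 24 h cells with 1 µg/ml. With 10 µg/ml they numbered 1049 without untreated replicate 1 of 24 h and 1063 without replicate 1 of the 4 h cells with 10 µg/ml. Neutrophil surface receptors, of which 24 of 29 were lower with time in untreated cells, had a more positive change in 14 of 29 members with 1 µg/ml and in 19 with 10 µg/ml, and a more negative one in 0. G2/M and mitosis genes had a more positive change in 9 of 30 and 15 of 30, and a more negative one in 0. Endoplasmic reticulum chaperones, of which 9 of 22 were higher with time in untreated cells, had a more negative change in 13 of 22 members at both concentrations and a more positive one in 0. Ribosome biogenesis factors were called higher in 25 of 28 members with 1 µg/ml and in 17 with 10 µg/ml. Their time change was called different from that of untreated cells in 0 members with 1 µg/ml, and was more negative in 10 with 10 µg/ml.

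CSF1R, the receptor of the macrophage growth factor M-CSF, had 23.3 and 22.6 CPM at 24 h, against 71.3 and 42.5 CPM at 4 h in untreated cells. Its time change was -1.31 ± 0.21 with 0, 3.29 with 1 and 3.66 with 10 µg/ml LTA. YPEL4, a small conserved protein, changed by -1.35, 3.98 and 4.01 in the same order, and VWA1, a matrix protein, by -4.00, 1.49 and 2.33. These 3 genes fell with time in untreated cells and rose in cells with LTA. CCND1 changed by 0.84, -2.65 and -2.85, and NMNAT3, a mitochondrial NAD synthesis enzyme, by 2.42, -1.58 and -1.15. Here the untreated cells rose and the treated cells fell. ITGAM changed by -0.93, 1.02 and 1.27, and CD14 by -1.84, -0.32 and 0.93. TLR2 fell at every concentration, by 1.81, 3.10 and 2.49.

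**Figure D5:**
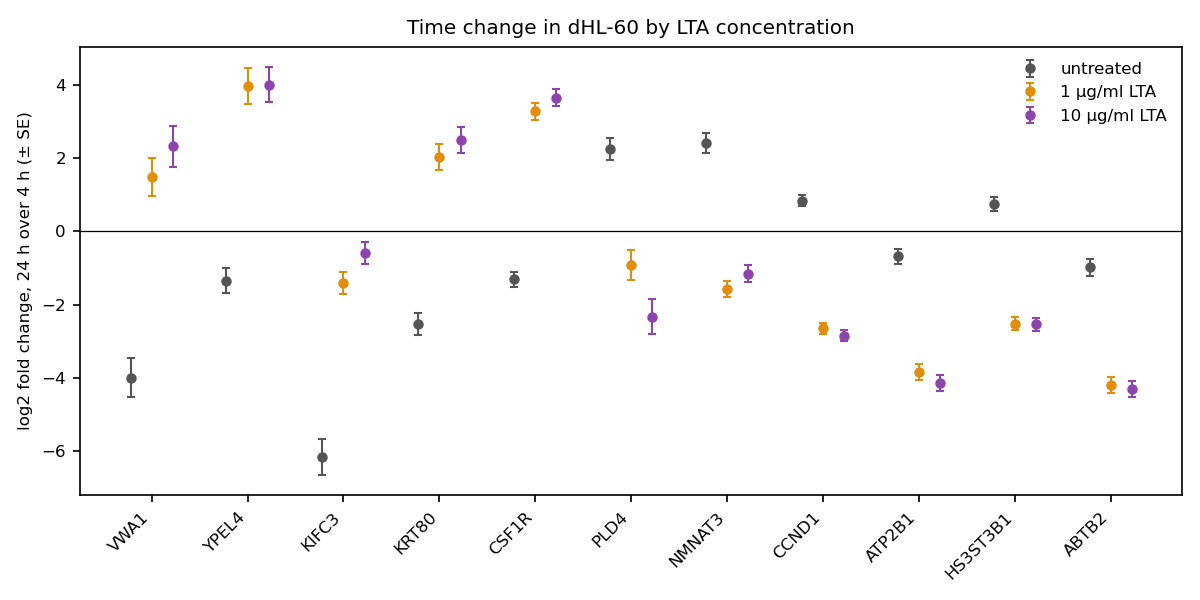
Log2 fold change of 24 h over 4 h ± SE (y axis) for 11 genes in dHL-60 with 0, 1 and 10 µg/ml LTA. The genes were chosen for the largest differences from untreated cells that had the same sign at both concentrations. By this choice the untreated change is the lowest in the 5 at the left and the highest in the 6 at the right. Examples are CSF1R, with -1.31 against 3.29 and 3.66, and CCND1, with 0.84 against -2.65 and -2.85. HBB, with 0 counts at 24 h in untreated cells, is not drawn.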

How the data were processed

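Levels of mRNA were measured in HL-60 cells from total RNA with a stranded mRNA kit, per the labels' protocols. The authors deposited raw counts, 1 whole number for each gene symbol in each library. Tools listed in the submitters' processing notes, without their roles, are edgeR 3.36.0, DESeq2 1.28.0, featureCounts 2.0.1, HISAT2 2.1.0 and fastp 0.20.0, and the build is GRCh38. No source used here states whether reads were counted by strand, which makes antisense and overlapping genes uncertain.

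Of 23575 symbols, 23283 matched the RefSeq table (GRCh38.p14) by symbol and 219 by synonym. Groups came from the sample titles. The 12 dHL-60 libraries were fitted together with edgeR 4.0.16 (R 4.3.3, TMM scaling, filterByExpr, quasi-likelihood F test, two-sided, Benjamini-Hochberg over all genes tested), as contrasts of group means with 6 residual degrees of freedom. DESeq2 1.42.0 was an alternative. The script was tested on simulated data. The replicate numbers were not taken as pairs. Deviations from the group means correlated between -0.204 and 0.383 over 15 pairs of groups, and 5 passed 0.1. Among the 4 h groups they correlated at 0.383 (0 and 1 µg/ml), 0.207 (1 and 10 µg/ml) and 0.133 (0 and 10 µg/ml). Libraries of the same number at 4 h thus shared part of their deviations. Between the untreated 24 h and 4 h groups the correlation was -0.124.

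The comparison, the 42 gene lists and the rule for naming genes were chosen with earlier results of these data known. The rule took, among called genes with non-overlapping pairs and at least 5 CPM at the higher time, the 12 largest rises and 12 largest falls, leaving out noncoding, unnamed, antisense and pseudogene symbols by their form, 4 members of each list, 6 genes in each direction for the difference from LTA, and 10 genes always. In all, 25 of 922 list entries were not found by their symbol in the table and were not analysed here, most of them aminoacyl-tRNA synthetases, of which 2 were tested and 2 were higher. Members that did not pass the filter on low counts were not tested. For genes at 0 in the 24 h pair, folds are bounds set by 3 counts over the pair, and with 1 to 3 counts the ratio has a 95% exact binomial interval. Both cover counting error only. Alternatives were other scalings, no filter, DESeq2, a replicate block, an adjusted p under 0.01, the 4 untreated libraries alone and each library left out. The uHL-60 columns follow a plain character sort of the symbols, which places 1343 symbols differently, and uHL-60 values are given only for symbols at the same position in both orders. Results on 4 genes are not reported here.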

Additional observations from a re-analysis of the deposited data

Results flagged for a closer look

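The time change of untreated dHL-60 differed from that of cells with LTA, by the interaction test, in 1582 genes upward and 879 downward for 1 µg/ml, and in 2339 upward and 1662 downward for 10 µg/ml, counted as LTA minus untreated.

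The genes with the most positive difference called at both concentrations, given as log2 values for 1 and then 10 µg/ml, were VWA1 (5.49 and 6.33), YPEL4 (5.32 and 5.35), KIFC3 (4.77 and 5.58), KRT80 (4.57 and 5.04) and CSF1R (4.60 and 4.97). HBB had fitted differences of 13.7 and 6.94, which depend on the prior count because the untreated cells had 0 counts at 24 h. Its adult globin sum was 33.3 and 36.3 CPM in untreated cells at 4 h, against 0.491 and 0.155 CPM with 1 µg/ml and 21.7 and 24.5 CPM with 10 µg/ml. The most negative differences were those of PLD4 (-3.16 and -4.58), NMNAT3 (-3.99 and -3.57), CCND1 (-3.49 and -3.69), ATP2B1 (-3.17 and -3.47), HS3ST3B1 (-3.27 and -3.29) and ABTB2 (-3.21 and -3.33). Both differences share the untreated libraries.

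Within untreated cells, 3 of these genes lost their call when a library was left out. ATP2B1, a calcium pump, was called at -0.68 (adjusted p = 0.0158) and stood at -0.35 (adjusted p = 0.204) without replicate 2 of 4 h and at -0.54 (adjusted p = 0.118) without replicate 2 of 24 h. HS3ST3B1, a heparan sulfate enzyme, stood at 0.56 (adjusted p = 0.07) without replicate 1 of 4 h, against 0.75 with all libraries. ABTB2 stood at -0.54 (adjusted p = 0.134) without replicate 2 of 4 h, against -0.98.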

How the results depend on the processing

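For untreated cells the counts of genes higher and lower at 24 h were 2056 and 2783 with DESeq2 size factors, 2078 and 2744 with upper-quartile scaling, 2367 and 2775 without a filter, 1899 and 2574 with DESeq2 and 2016 and 2263 with the 4 untreated libraries alone, against 2114 and 2739. With the replicate number as a block they were 2173 and 2799, and the deviations of untreated 24 h and 4 h libraries of the same number correlated at -0.124. With the 24 h numbers crossed, a choice made after seeing the data, they were 2441 and 2997. No gene called in both had opposite signs under any of these settings. With an adjusted p under 0.01, 1240 genes were higher and 1913 lower. For the difference from LTA that threshold gave 892 upward and 426 downward with 1 µg/ml, and 1412 and 828 with 10 µg/ml.

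With each library left out in turn, untreated counts ran between 1274 and 1828 higher and between 1864 and 2427 lower. With 1 µg/ml they ran between 2231 and 2456 higher and 2048 and 2436 lower, and with 10 µg/ml between 1853 and 2336 higher and 2077 and 2377 lower. Differences from LTA ran between 1064 and 1440 upward and 547 and 830 downward for 1 µg/ml, and between 1597 and 2314 upward and 1049 and 1741 downward for 10 µg/ml. A group left with 1 library was assumed to vary like the others, and more genes then passed the filter.

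Of 170 named genes under 12 settings, 2009 values kept their side of the threshold, 29 fell short of it and 2 newly passed it. Besides those in the report, MT1X, SREBF2, TRIB2 and RARA lost a call without 1 untreated library. No direction turned, and no setting moved the median of all genes by over 0.1. The limits are 2 libraries a time, of unequal depth, whose collection is not described in the labels.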

Other observations

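Outside the rule for named genes and chosen after its values were seen, MIR210HG, the host transcript of the hypoxia-induced miR-210, had 10.4 and 7.86 CPM at 24 h, against 0 and 0.336 CPM at 4 h in untreated cells. TERT, the catalytic subunit of telomerase, had 53 counts in the 24 h pair and 3 in the 4 h pair, a ratio of 11.8 with a 95% exact binomial interval of 3.83 to 59.2. SPHK1, a kinase that makes sphingosine 1-phosphate, had 1.01 and 0.882 CPM at 24 h, against 17.5 and 11.9 CPM at 4 h, while its receptor gene S1PR3 had 6.65 and 7.27 CPM at 24 h, against 1.12 and 1.43 CPM at 4 h. Kinase and receptor thus moved in opposite directions in untreated cells.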
